A study of Mus musculus with 12 samples.

Results

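The cell cycle genes described here are 36 listed genes of DNA replication, nucleotide synthesis, cyclin-dependent kinase control and mitosis, followed over 12 expression arrays of adult mouse iris. Genes were found by the symbol of the platform annotation (Cdk1 appears in older annotation as Cdc2a), and a gene with several probe sets was represented by the one with the highest mean over the 12 arrays. A probe set of its own symbol was found for 35 of the 36 genes, out of 18193 genes with such a probe set on the array, and 1 listed gene was not analysed here. The choice of probe set used the mean over all strains and no difference between them. The genes themselves were listed with earlier results of these data known.

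The arrays came from 4 groups of mice aged 60 days, with 3 arrays in each, and every array held RNA from the pooled irides (4 eyes) of 2 animals. The comparison group was C57BL/6J. B6-Lyst mice (strain B6-Lystbg-J) had a mutated Lyst gene, a regulator of lysosome traffic, B6-albino mice (B6-(Cg)TyrC-2J) a mutated Tyr gene, which encodes tyrosinase, and mice of the strain B6.D2(Tryp1-Gpnmb-)/SJ, called B6-D2 congenic, mutations in Tyrp1, written Tryp1 in the labels, and Gpnmb, both of which encode melanosome proteins. The design text calls the mice healthy and names no treatment, and the labels call the arrays of a strain biological replicates. Levels are deposited log2 values, differences are log2 differences of strain means (1 unit is a doubling), ± is an SD over 3 arrays for a level and a standard error (SE) of the fit for a difference.

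Cell division runs through G1, DNA synthesis, G2 and mitosis under the control of cyclins bound to cyclin-dependent kinases. E2F factors switch on the genes for DNA synthesis, and later the genes for mitosis are switched on through CCAAT boxes and through a short promoter element known as the cell cycle genes homology region. The adult iris is made up mostly of stroma, smooth muscle and pigmented epithelium, tissues in which few cells divide, so transcripts of dividing cells are a small part of its RNA.

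Promoters are shown for 5 genes among those with the widest differences from C57BL/6J, and for Cdkn1a, the 1 listed gene called between strains, because they show which letters these genes share. The sequences are RefSeq, GRCm38.p6, 5′ to 3′ on the strand of the gene, and all end at the last base before the transcript's start. Capitals mark CCAAT (or ATTGG on the other strand), TTTGAA or TTCGAA (the homology region, TTCAAA on the other strand), and the E2F letters TTTGGCGC, TTTCCCGC, TTTGCCGC or TTTCGCGC on either strand. Top2a lies at chr11:99024190-99024309 (minus strand), Cdk1 at chr10:69352913-69353052 (minus), Mki67 at chr7:135716380-135716579 (minus), Rrm2 at chr12:24708194-24708253 (plus), Mcm5 at chr8:75109349-75109508 (plus) and Cdkn1a at chr17:29090859-29090978 (plus).
Top2a: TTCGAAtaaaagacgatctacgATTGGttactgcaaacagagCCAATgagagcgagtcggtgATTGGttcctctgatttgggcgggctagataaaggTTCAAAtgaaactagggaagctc
Cdk1: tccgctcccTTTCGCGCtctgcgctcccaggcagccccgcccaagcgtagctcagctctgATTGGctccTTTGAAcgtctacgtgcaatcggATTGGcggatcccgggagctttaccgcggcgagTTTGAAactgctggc
Mki67: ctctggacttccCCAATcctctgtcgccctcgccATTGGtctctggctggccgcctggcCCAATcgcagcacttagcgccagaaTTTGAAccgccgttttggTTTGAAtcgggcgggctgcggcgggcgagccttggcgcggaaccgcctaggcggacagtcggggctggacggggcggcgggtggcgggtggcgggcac
Rrm2: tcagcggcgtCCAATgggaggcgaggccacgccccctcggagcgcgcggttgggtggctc
Mcm5: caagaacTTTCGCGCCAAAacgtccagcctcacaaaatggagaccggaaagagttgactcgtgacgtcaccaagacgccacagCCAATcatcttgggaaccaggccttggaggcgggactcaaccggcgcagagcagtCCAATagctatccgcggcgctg
Cdkn1a: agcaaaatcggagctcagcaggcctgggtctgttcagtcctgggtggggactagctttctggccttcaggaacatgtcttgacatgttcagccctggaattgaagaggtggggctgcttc

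The stretches of Top2a, Cdk1 and Mki67 hold both CCAAT boxes and the homology region, that of Rrm2 holds a CCAAT box alone, and that of Mcm5 holds CCAAT boxes with E2F letters that overlap on both strands. The stretch of Cdkn1a, which encodes the kinase inhibitor p21, holds none of these letters. Over the full window of 250 bases before and 50 after the start, a promoter was given for 29 of the 35 genes. CCAAT stood in 24 of the 29 (82.8%), against 42.3% of 17492 protein-coding genes in the same table. The homology region stood in 16 (55.2%, against 20.2%), and the E2F letters in 5 (17.2%, against 3.3%). CCAAT and the homology region stood together in 16 (55.2%, against 8.2%).

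E2F letters stood in 4 of the 6 replication promoters, those of Mcm3, Mcm5, Mcm6 and Mcm7, and in that of Cdk1, and in 0 of the 4 nucleotide synthesis promoters and 0 of the 15 of the checkpoint, kinase and spindle groups. The homology region stood in all 5 checkpoint promoters, in 3 of 4 of the mitotic kinase and passenger group, in 4 of 6 of the spindle group, in 2 of 6 of the replication group, in 2 of 4 of the cyclin and kinase group, and in 0 of 4 of the nucleotide synthesis group. These are matches of letters that were not tested as sites, and the difference between roles was not tested.

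Most cell cycle genes lay in the middle or lower part of the signal scale. Their means over the 12 arrays fell between the 5.91th and the 95.2th percentile of the 45037 probe sets, with a median at the 53.6th. Only 5 lay above the 75th percentile: Pcna (10.19), the sliding clamp of DNA polymerase, Ccnd1 (9.38), the G1 cyclin D1, the replicative helicase subunits Mcm7 (8.88) and Mcm4 (8.19), and Rrm1 (8.20), the large subunit of ribonucleotide reductase.

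Of the 35 genes, 10 had a mean under the 40th percentile (5.653) and are called low here. Of all 18193 genes with a probe set of their own symbol, 13190 had one at or above that limit, a share close to the 25 of 35 here. The low genes were Kif20a (4.18), a kinesin of late mitosis, Bub1 (4.20), a kinase of the spindle checkpoint, Aurkb (4.58), the kinase of the chromosomal passenger complex, and Tyms (4.72), which makes thymidylate. Ube2c (4.80), the ubiquitin-conjugating enzyme of the anaphase-promoting complex, Kif11 (4.99), the motor that separates spindle poles, Nusap1 (5.30), a spindle protein, and the kinase gene Aurka (5.30) followed. Ccnb2 (5.42), a mitotic cyclin, and Birc5 (5.54), the passenger protein survivin, lay nearest to the limit from below. On the other side of it stood Cdca3 (5.69), Plk1 (5.89) and Rrm2 (5.89).

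The 6 lowest of these genes were under 5.653 on all 12 arrays. Nusap1 and Aurka passed it on 1 array each, and Ccnb2 and Birc5 on 3 each. The files give no detection call, so low signal is not shown to be absence. For scale, 17 genes known from gametes, pancreatic islets, kidney and liver had means between 3.996 and 6.795 with a median of 4.88. Of the 35 cell cycle genes, 5 lay under that median and 9 lay over the highest of the 17.

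Most of the low genes belonged to the mitotic groups, a difference between roles that was not tested. The replication group had 0 low genes of 7 and the nucleotide synthesis group 1 of 4, Tyms. The cyclin and kinase group had 1 of 6, Ccnb2. The checkpoint group had 2 of 5, Bub1 and Ube2c, the mitotic kinase and passenger group 3 of 5, Aurka, Aurkb and Birc5, and the spindle, chromosome and cytokinesis group 3 of 8, Kif11, Kif20a and Nusap1. A further probe set, annotated to Tyms and to the pseudogene Tyms-ps together, lay at 6.48 and was not used.

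**Figure D1:**
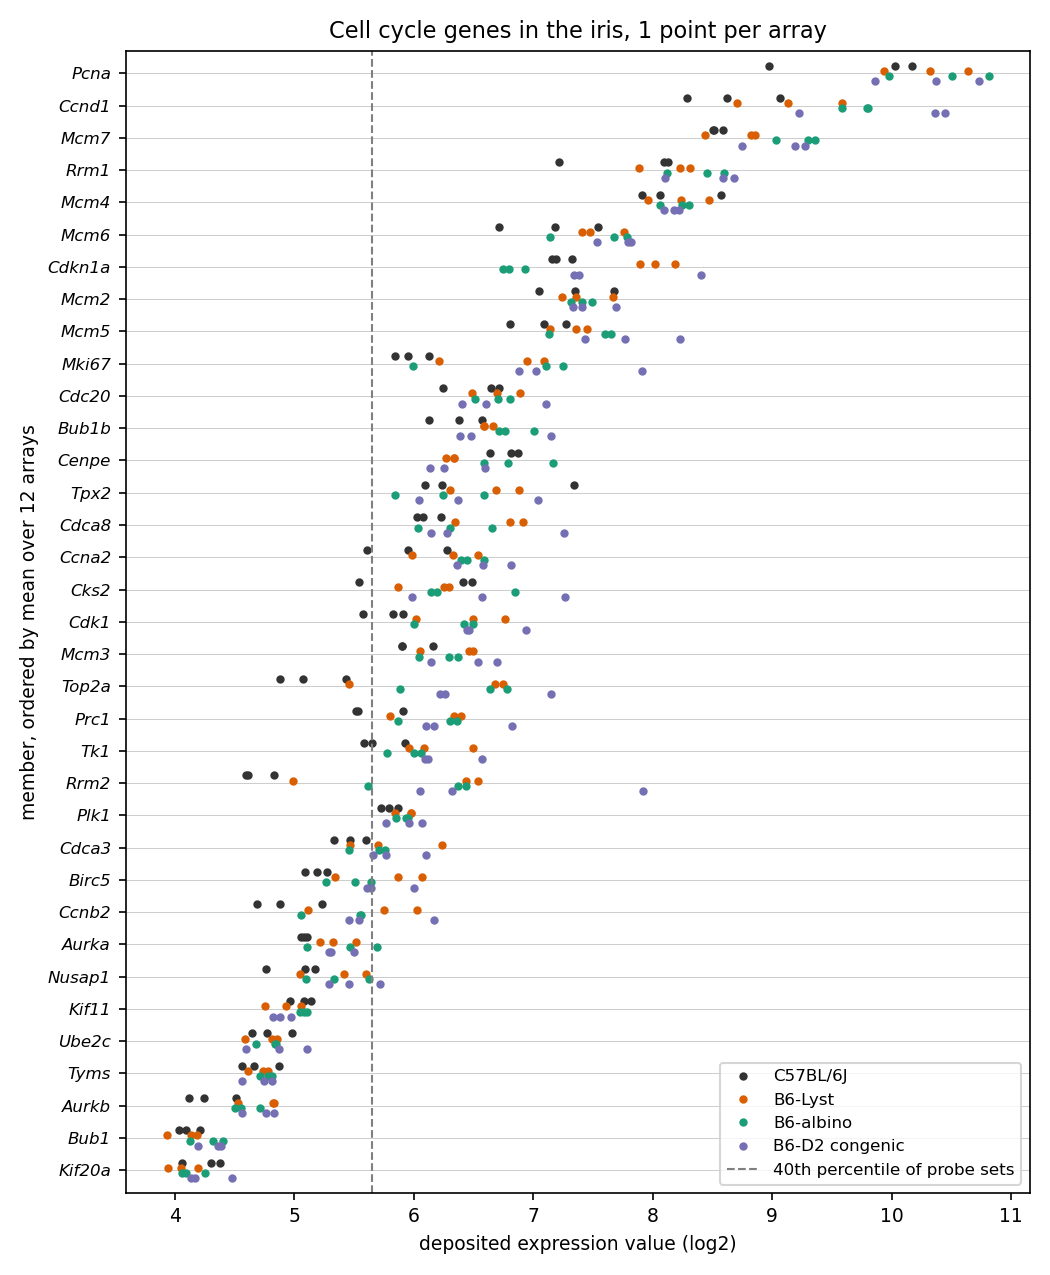
Deposited log2 expression value (x axis) of 35 cell cycle genes (rows, ordered by mean over 12 arrays), with 1 point per array coloured by strain and a dashed line at 5.653, the 40th percentile of probe sets. Points run from under 5 for Kif20a and Bub1 to over 10 for Pcna, and the black C57BL/6J points stand at the left of the row for Top2a, Rrm2, Mki67 and Cdk1.

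The arrays differed in ways other than the mutations. The 9 pigment cell genes examined were above the limit, and their average per strain was 11.98 to 12.51. The lowest average, that of B6-D2 congenic, includes Gpnmb, which is mutated in that strain and was at 9.33 there against 12.48 to 12.97 in the other strains. Krt12, a corneal epithelial keratin, was at 12.86 on C57BL/6J replicate 1, 10.45 on B6-albino replicate 1 and 13.81 on B6-D2 congenic replicate 2, while the other 9 arrays ran from 5.96 to 7.12. The mean of 9 lens genes lay between 7.85 and 13.06 over the arrays, and that of 13 macrophage genes (11 above the limit) between 9.56 and 9.80 in B6-Lyst against 7.39 to 8.04 elsewhere. Poly-A spike-in controls, RNA added before labelling, averaged 7.37 to 8.16 on the C57BL/6J arrays and 4.94 to 5.95 on all others. Spike-in controls of the hybridization averaged 9.67 to 9.76 on the B6-Lyst arrays and 9.99 to 10.45 on all others. No label names a batch, so a difference of C57BL/6J from the other strains and the difference in poly-A spike-in level cannot be told apart. The same holds for a difference of B6-Lyst and the hybridization spike-in level. In bulk tissue, fewer dividing cells and less RNA per dividing cell cannot be told apart either.

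C57BL/6J had the lowest strain mean for 20 of the 25 tested cell cycle genes, but no single gene reached the threshold against C57BL/6J. Each of the 3 mutant strains was compared with the same C57BL/6J arrays, so the 3 comparisons are not independent. Of 25 tested genes, 0 were called in B6-Lyst against C57BL/6J (limma, Benjamini-Hochberg adjusted p under 0.05), where 2.53% of 27022 probe sets were called. In B6-albino 0 of 25 were called, against 0.348% of probe sets, and in B6-D2 congenic 0 of 25, against 0.0407%. The F test for any difference among the 4 strains also called 0 of 25, against 2.09%.

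At an unadjusted p under 0.05 in the limma fit, 7 of the 25 were higher and 1 lower in B6-Lyst, where 6.1% of all tested probe sets were higher and 11.3% lower. In B6-albino 10 were higher and 0 lower (11% and 8.37% of all), and in B6-D2 congenic 13 were higher and 1 lower (9.2% and 8.63%). Without the filter on signal, 0 of the 35 genes were called against C57BL/6J in any of the 3 strains. Of all probe sets without the filter, 1.58%, 0.184% and 0.04% were called for B6-Lyst, B6-albino and B6-D2 congenic, and the smallest adjusted p of these genes was 0.101, 0.0949 and 0.143.

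The direction was shared by most of the genes. Because the genes were listed with earlier results of these data known, the counts of direction describe them and are not an independent test. Over the 25 tested genes the median difference from C57BL/6J was 0.34 for B6-Lyst, 0.39 for B6-albino and 0.54 for B6-D2 congenic, beside medians of -0.02, 0.03 and 0.01 over all tested probe sets. A difference above 0 was found for 23, 23 and 22 of the 25, where 47.4%, 53.7% and 51.7% of all tested probe sets lay above 0. Rrm2, Top2a, Cdca3 and Prc1 had a C57BL/6J mean under the signal limit and passed it only through the mutant strains, so the same counts are given over all 35 genes with a probe set. There, 29 were above 0 for B6-Lyst (48% of all probe sets), 31 for B6-albino (47.4%) and 31 for B6-D2 congenic (49.2%), with medians of 0.34, 0.29 and 0.47. The retina and lens marker means were lowest in C57BL/6J too. The mean of 9 photoreceptor and retina genes (7 above the limit) was 6.94 in C57BL/6J, against 7.90 for B6-Lyst, 8.34 for B6-albino and 7.76 for B6-D2 congenic, with arrays of every strain overlapping. The lens mean was 9.56, 10.04, 11.995 and 11.235 in the same order, and only the B6-albino arrays lay clear of C57BL/6J. With the corneal, lens and retina means as covariates the medians over the 25 genes were 0.50, 0.33 and 0.48, and with the gap of the actin control (described with Pcna below) they were 0.28, 0.29 and 0.39. Beyond these models the part of tissue and RNA quality in the direction was not tested.

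Counted by arrays over the tested genes, all 3 arrays of B6-Lyst lay above all 3 of C57BL/6J for 8 of the 25 tested genes and below them for 1, where 8.15% and 14.6% of all tested probe sets did so. In B6-albino the counts were 7 above and 1 below (12.5% and 11% of all). In B6-D2 congenic 12 lay above and 1 below (8.79% and 9.34% of all). Over all 35 genes 11 lay above and 1 below in B6-Lyst (8.08% and 12.1% of all probe sets), 8 and 1 for B6-albino (9.57% and 12.4%), and 17 and 1 for B6-D2 congenic (7.44% and 8.34%). C57BL/6J had the lowest strain mean for 20 of the 25 genes, against 31.1% of all tested probe sets, and for 26 of the 35, against 27.7% of all probe sets. The 5 exceptions among the tested genes were Cks2 and Cenpe, lowest in B6-Lyst, Cdkn1a and Tpx2, lowest in B6-albino, and Mcm4, lowest in B6-D2 congenic.

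**Figure D2:**
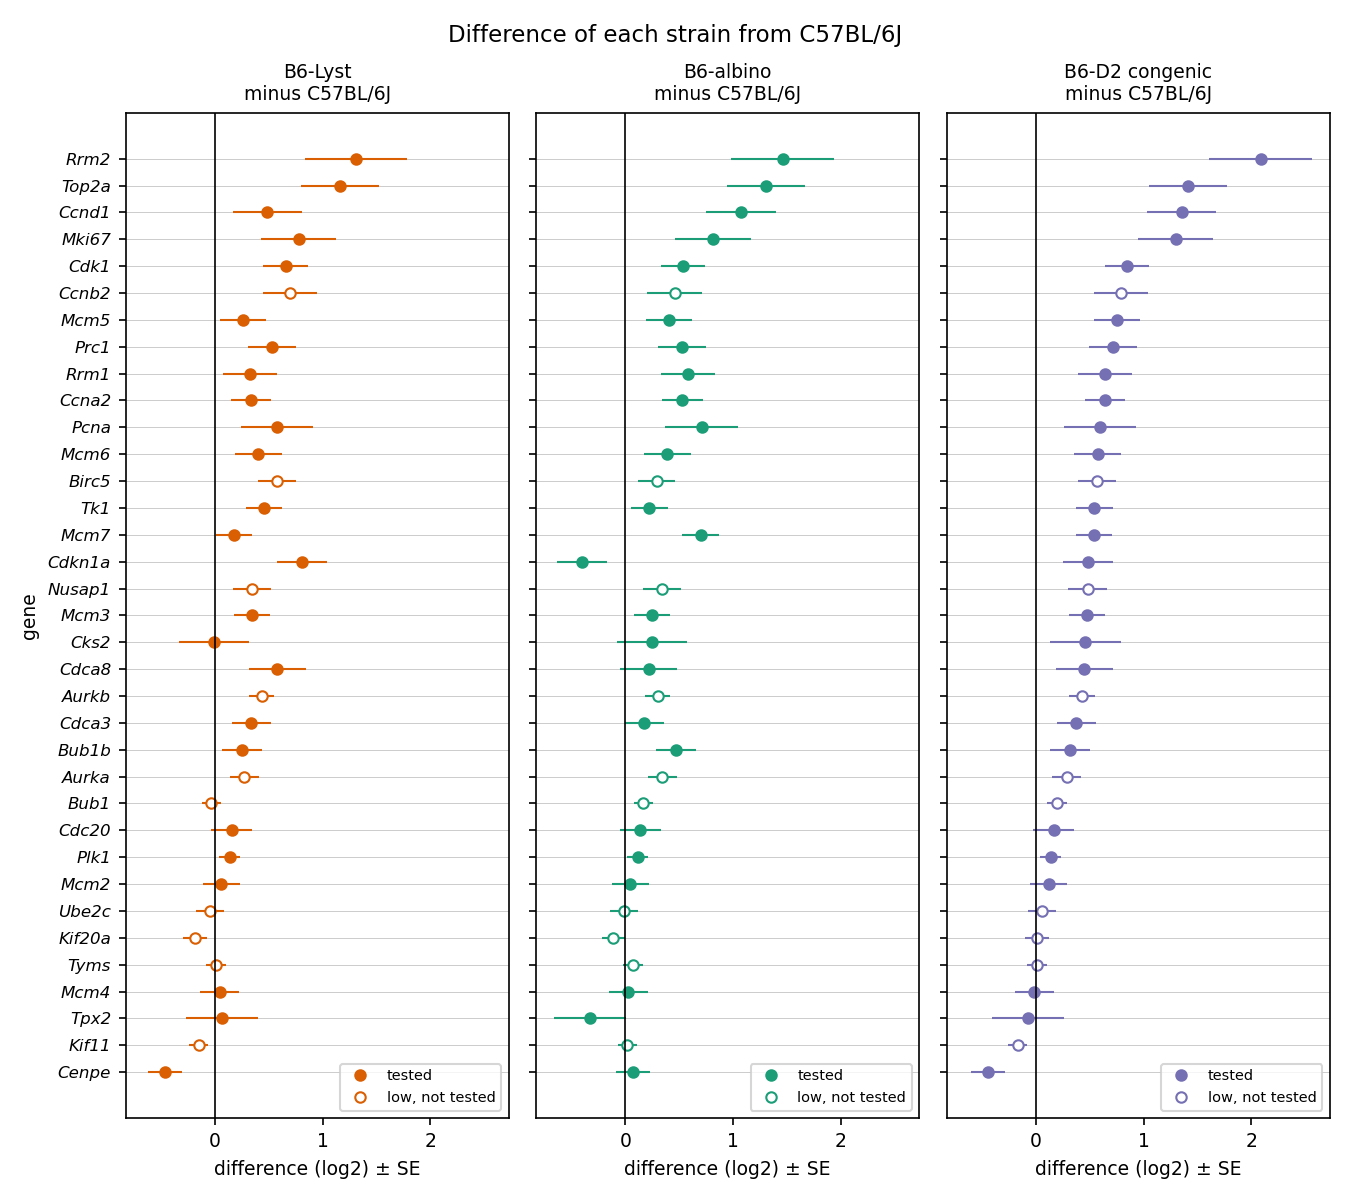
Difference of each mutant strain from C57BL/6J (x axis, log2, point) with its SE (bar) for 35 cell cycle genes, ordered by the B6-D2 congenic difference (open points are the 10 low genes, which were not tested). Points lie right of 0 for 29, 31 and 31 of the 35 genes in B6-Lyst, B6-albino and B6-D2 congenic, and Cenpe lies to the left in B6-Lyst and B6-D2 congenic.

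Among the replication genes, all 7 were tested and 0 were called against C57BL/6J. Pcna, the clamp, gave 10.17, 10.03 and 8.97 on C57BL/6J replicates 1 to 3, 10.64, 10.32 and 9.94 in B6-Lyst, 10.50, 10.81 and 9.98 in B6-albino and 9.86, 10.37 and 10.73 in B6-D2 congenic. The strains overlapped, and C57BL/6J replicate 3 stood below every other array. That array also had the widest gap between the 3′ and 5′ probe sets of the actin control, 4.30 against 1.84 to 2.72 on the others, a sign of shorter RNA whose part in the Pcna value was not tested.

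Mcm7, a subunit of the helicase ring that unwinds DNA at the fork, was at 8.51, 8.58 and 8.50 in C57BL/6J, 8.82, 8.44 and 8.86 in B6-Lyst, 9.36, 9.30 and 9.03 in B6-albino and 8.75, 9.28 and 9.19 in B6-D2 congenic. The B6-albino and B6-D2 congenic arrays all lay above C57BL/6J, while B6-Lyst overlapped it. The B6-albino difference was 0.70 ± 0.16 (SE) with an adjusted p of 0.08 in limma, the smallest of any of these genes against C57BL/6J. In B6-D2 congenic it was 0.54 ± 0.16 (adjusted p = 0.164) and in B6-Lyst 0.17 ± 0.16 (0.639). The other 3 tested probe sets of Mcm7, at 6.75, 7.03 and 7.28, gave smaller B6-albino differences of 0.28, 0.28 and 0.38 (adjusted p = 0.639, 0.42 and 0.264).

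Mcm5, another subunit of the ring, was at 6.80, 7.09 and 7.28 in C57BL/6J, 7.45, 7.14 and 7.35 in B6-Lyst, 7.60, 7.65 and 7.13 in B6-albino and 7.43, 8.23 and 7.77 in B6-D2 congenic. Only the B6-D2 congenic arrays lay clear of C57BL/6J, by 0.75 ± 0.21 on average (adjusted p = 0.149). Of the other ring subunits, Mcm2 differed from C57BL/6J by 0.04 to 0.12, Mcm4 by -0.01 to 0.04, Mcm3 by 0.24 to 0.47 and Mcm6 by 0.39 to 0.57 over the 3 strains. A second tested probe set of each gave other values, 0.41 to 0.47 for Mcm2, 0.18 to 0.33 for Mcm4, 0.54 to 0.83 for Mcm3 and 0.16 to 0.35 for Mcm6, so no order among the subunits can be read from them.

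In nucleotide synthesis, Rrm2, the small subunit of ribonucleotide reductase that is made in S phase, showed the widest differences of all the genes. Its levels were 4.61, 4.59 and 4.83 in C57BL/6J, 6.44, 4.99 and 6.54 in B6-Lyst, 6.43, 6.37 and 5.61 in B6-albino and 6.06, 7.92 and 6.32 in B6-D2 congenic. No mutant array fell as low as C57BL/6J, and each mutant strain had 1 array well apart from the other 2. The differences from C57BL/6J were 1.31 ± 0.48 for B6-Lyst (adjusted p = 0.183), 1.46 ± 0.48 for B6-albino (0.146) and 2.09 ± 0.48 for B6-D2 congenic (0.119).

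The C57BL/6J mean of Rrm2 (4.68) lay under the signal limit, and with that mean set at 5.653 the differences became 0.34, 0.49 and 1.11. Its other 2 probe sets, both low, differed by -0.04 to 0.50. The probe set used for Rrm2 ends in x_at, the manufacturer's mark for probes that may also match other transcripts, as did those of Mcm3, Mcm4, Mcm5 and Aurkb.

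Rrm1, the large subunit, was at 8.13, 8.10 and 7.21 in C57BL/6J, 8.31, 8.23 and 7.88 in B6-Lyst, 8.45, 8.59 and 8.12 in B6-albino and 8.10, 8.59 and 8.68 in B6-D2 congenic. The strains overlapped, and C57BL/6J replicate 3 was again the lowest array. Tk1, which salvages thymidine, was at 5.58, 5.93 and 5.65 in C57BL/6J, 6.49, 5.96 and 6.09 in B6-Lyst, 6.00, 6.06 and 5.77 in B6-albino and 6.09, 6.57 and 6.12 in B6-D2 congenic. B6-Lyst and B6-D2 congenic lay above C57BL/6J on all arrays, by 0.46 ± 0.17 (adjusted p = 0.189) and 0.54 ± 0.17 (0.172). Tyms stayed between 4.56 and 4.87 on all 12 arrays.

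Of the cyclins and their kinase, Ccnd1, which drives G1 and is also made in cells that do not divide, was at 8.28, 9.06 and 8.62 in C57BL/6J and 9.59, 8.70 and 9.13 in B6-Lyst. It was at 9.79, 9.80 and 9.58 in B6-albino and 9.22, 10.44 and 10.36 in B6-D2 congenic. B6-albino and B6-D2 congenic lay above C57BL/6J without overlap, and B6-Lyst overlapped it. The differences were 1.07 ± 0.32 in B6-albino (adjusted p = 0.122), 1.35 ± 0.32 in B6-D2 congenic (0.119) and 0.48 ± 0.32 for B6-Lyst (0.482). Its other 2 probe sets, at 7.42 and 7.62, differed from C57BL/6J by 0.26 and -0.28 in B6-Lyst, 0.34 and 0.33 in B6-albino and 0.43 and 0.60 in B6-D2 congenic. Without B6-D2 congenic replicate 1, Ccnd1 in B6-D2 congenic was 1.75 above C57BL/6J with an adjusted p of 0.043 in limma.

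Cdk1, the kinase that starts mitosis, was at 5.82, 5.91 and 5.58 in C57BL/6J, 6.76, 6.02 and 6.50 in B6-Lyst, 6.42, 6.49 and 6.00 in B6-albino and 6.45, 6.94 and 6.46 in B6-D2 congenic. It was the gene of this group for which all 9 mutant arrays lay above all 3 C57BL/6J arrays. The differences were 0.66 ± 0.21 (adjusted p = 0.123), 0.53 ± 0.21 (0.196) and 0.85 ± 0.21 (0.124). Ccna2, the cyclin of S phase and G2, differed by 0.34 to 0.64 and Cks2, a small partner of the kinases, by -0.01 to 0.46 over the 3 strains.

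In the checkpoint group, Cdc20, which activates the anaphase-promoting complex, was at 6.65, 6.71 and 6.25 in C57BL/6J, 6.89, 6.49 and 6.70 in B6-Lyst, 6.70, 6.80 and 6.51 in B6-albino and 6.60, 7.11 and 6.40 in B6-D2 congenic. All strains overlapped, and the differences from C57BL/6J were 0.14 to 0.17 with an SE of 0.19. Bub1b, a checkpoint kinase-like protein, differed by 0.25 to 0.47 and Cdca3 by 0.18 to 0.37.

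Among the mitotic kinases and passenger proteins, Cdca8 (borealin), a passenger complex subunit, was at 6.08, 6.23 and 6.03 in C57BL/6J, 6.80, 6.35 and 6.92 in B6-Lyst, 6.30, 6.65 and 6.03 in B6-albino and 6.15, 7.26 and 6.28 in B6-D2 congenic. Only B6-Lyst lay clear of C57BL/6J, by 0.58 ± 0.27 (adjusted p = 0.295). The 3 probe sets of Cdca8 disagreed: a tested one at 5.68 differed from C57BL/6J by -0.24 to -0.09, and a low one at 5.51 by 1.28 to 1.64. Plk1, the polo-like kinase, stayed between 5.73 and 6.07 on all arrays.

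Low genes of this group and of the cyclins are given as levels only. Birc5 was at 5.19, 5.27 and 5.09 in C57BL/6J, 6.06, 5.34 and 5.87 in B6-Lyst, 5.64, 5.51 and 5.26 in B6-albino and 5.64, 6.00 and 5.60 in B6-D2 congenic. Ccnb2 was at 4.68, 4.88 and 5.23 in C57BL/6J, 5.75, 5.12 and 6.03 in B6-Lyst, 5.55, 5.56 and 5.06 in B6-albino and 5.54, 6.17 and 5.45 in B6-D2 congenic. For both genes B6-D2 congenic lay above C57BL/6J on all arrays and B6-albino overlapped it. B6-Lyst lay above it for Birc5 and overlapped it for Ccnb2. Aurkb, Aurka and Nusap1 had means of 4.29, 5.08 and 5.01 in C57BL/6J and of 4.59 to 4.72, 5.35 to 5.42 and 5.35 to 5.49 in the mutant strains. Kif20a, Bub1, Tyms, Ube2c and Kif11 differed from C57BL/6J by -0.19 to 0.20 over the 3 strains. Other low probe sets differed by 0.15 to 0.44 for Bub1, and by 0.35 to 0.56 and -0.07 to 0.17 for Kif11.

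The chromosome genes Top2a and Mki67 had the largest differences from C57BL/6J among the genes of the mitotic groups. Top2a, the topoisomerase that untangles replicated DNA, was at 5.07, 5.44 and 4.88 in C57BL/6J, 6.75, 5.45 and 6.68 in B6-Lyst, 6.78, 6.63 and 5.88 in B6-albino and 6.26, 7.15 and 6.22 in B6-D2 congenic. All mutant arrays lay above C57BL/6J, but B6-Lyst replicate 2 was level with the highest C57BL/6J array. The differences were 1.16 ± 0.37 for B6-Lyst (adjusted p = 0.121), 1.30 ± 0.37 for B6-albino (0.109) and 1.41 ± 0.37 for B6-D2 congenic (0.139), or 0.64, 0.78 and 0.89 with the C57BL/6J mean set at 5.653.

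The other 2 of the 3 probe sets of Top2a gave smaller differences. One, at 5.83, differed from C57BL/6J by -0.06, 0.02 and -0.06, and a low one, at 5.08, by -0.04, -0.20 and -0.20. In B6-Lyst against C57BL/6J, leaving out B6-Lyst replicate 2 brought Top2a to 1.58 with an adjusted p of 0.0364 in limma.

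Mki67, which encodes the Ki-67 protein that coats mitotic chromosomes, was at 5.84, 6.12 and 5.95 in C57BL/6J, 6.95, 6.21 and 7.09 in B6-Lyst, 7.25, 7.10 and 5.99 in B6-albino and 6.88, 7.91 and 7.02 in B6-D2 congenic. B6-Lyst and B6-D2 congenic lay above C57BL/6J on all arrays, and B6-albino replicate 3 lay inside the C57BL/6J range. The differences were 0.78 ± 0.35 (adjusted p = 0.287), 0.81 ± 0.35 (0.239) and 1.30 ± 0.35 (0.144). Prc1, which bundles microtubules at the cell middle, differed by 0.53, 0.53 and 0.71.

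Cenpe, a kinetochore motor, ran the other way. It was at 6.82, 6.64 and 6.87 in C57BL/6J, 6.27, 6.34 and 6.34 in B6-Lyst, 6.79, 7.16 and 6.58 in B6-albino and 6.59, 6.25 and 6.13 in B6-D2 congenic. B6-Lyst and B6-D2 congenic lay below C57BL/6J on all arrays and B6-albino overlapped it. The differences were -0.46 ± 0.16 (adjusted p = 0.157), 0.07 ± 0.16 (0.831) and -0.45 ± 0.16 (0.201). The other probe set of Cenpe, low at 3.80, differed by 0.16, 0.11 and 0.03. Tpx2, which activates the kinase Aurka on the spindle, differed from C57BL/6J by 0.07, -0.33 and -0.07. Another tested probe set of Tpx2, at 5.94, gave 0.20, -0.15 and -0.09. Low ones at 5.03 and 4.48 gave 0.39, 0.14 and 0.39, and 0.13, 0.28 and 0.29.

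**Figure D3:**
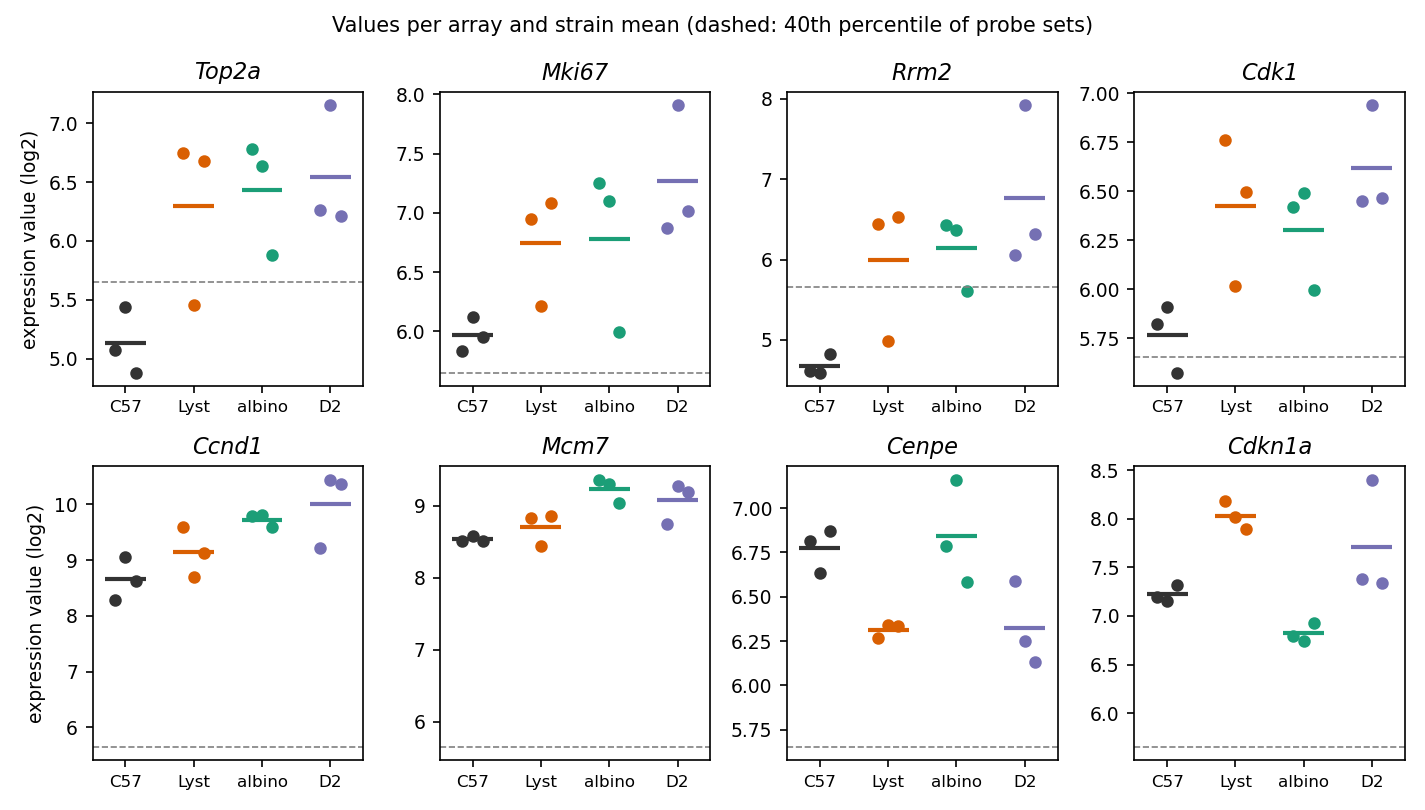
Deposited log2 expression value (y axis, scaled to each gene) of 8 cell cycle genes on each array, grouped by strain (C57 is C57BL/6J, Lyst B6-Lyst, albino B6-albino, D2 B6-D2 congenic), with the strain mean as a bar and 5.653 as a dashed line. C57BL/6J is lowest for Top2a, Rrm2 and Cdk1 on all arrays, Cenpe is lower in B6-Lyst and B6-D2 congenic, and Cdkn1a separates B6-Lyst from B6-albino.

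Cdkn1a was the 1 gene of the 25 tested that was called between strains. It encodes p21, which binds and blocks cyclin-dependent kinases and is a known target of the p53 protein. Its levels were 7.19, 7.16 and 7.32 in C57BL/6J, 8.18, 8.02 and 7.90 in B6-Lyst, 6.79, 6.75 and 6.93 in B6-albino and 7.38, 8.40 and 7.34 in B6-D2 congenic. The arrays of C57BL/6J, B6-Lyst and B6-albino formed 3 ranges that did not overlap, with B6-Lyst highest and B6-albino lowest, and B6-D2 congenic replicate 2 was the highest array of all.

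In B6-Lyst against B6-albino, where 1.84% of 27022 probe sets were called, 1 of the 25 tested genes was called. Cdkn1a was 1.21 ± 0.23 higher in B6-Lyst (2.31-fold, adjusted p = 0.0243 in limma, higher on 3 of 3 arrays). The call was lost when any 1 of the 6 arrays of these strains was left out, with differences of 1.13 to 1.28 and adjusted p of 0.0552 to 0.122, and with tissue marker levels in the model (1.30, adjusted p = 0.0641). The other probe set of Cdkn1a, at 6.10, was 0.89 higher in B6-Lyst with an adjusted p of 0.185. The lens gene mean stood at 7.85 to 11.59 in B6-Lyst and 11.19 to 13.06 in B6-albino. Its part beyond the tissue marker model, which held the corneal, lens and retina means, was not tested. The macrophage gene mean stood at 9.56 to 9.80 in B6-Lyst and 7.39 to 7.89 in B6-albino. It was not in that model, and its part in the Cdkn1a difference was not tested.

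Against C57BL/6J, Cdkn1a differed by 0.81 ± 0.23 in B6-Lyst (adjusted p = 0.0965), -0.40 ± 0.23 for B6-albino (0.361) and 0.48 ± 0.23 for B6-D2 congenic (0.303). The B6-Lyst value was called without B6-D2 congenic replicate 2 (adjusted p = 0.00551), and also in a fit of the 6 arrays of the pair (0.0422). It was called as well without the 3 arrays with Krt12 above 10 (0.79, adjusted p = 0.0361), an alternative chosen after the data were seen. B6-albino against B6-D2 congenic gave -0.88 ± 0.23 (adjusted p = 0.364).

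Apart from Cdkn1a, 0 of the 25 tested genes were called between mutant strains. Over the 25 tested genes the median difference of B6-Lyst from B6-albino was 0.00, beside -0.06 over all tested probe sets. The next smallest adjusted p in that pair were those of Cenpe (-0.53 ± 0.16, 0.115) and Mcm7 (-0.52 ± 0.16, 0.127). In B6-Lyst against B6-D2 congenic, where 0.933% of probe sets were called, 0 of 25 genes were called by limma and 3 were lower at an unadjusted p under 0.05, among 5.7% of all: Ccnd1 (-0.87 ± 0.32), Mcm5 (-0.49 ± 0.21) and Mcm7 (-0.36 ± 0.16).

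In B6-albino against B6-D2 congenic, where 0.0851% of probe sets were called, 0 of 25 genes were called by limma. At an unadjusted p under 0.05 Cenpe was higher (0.52 ± 0.16, adjusted p = 0.42) and Cdkn1a lower, where 5.6% and 2.89% of all probe sets were. Tk1 had the third smallest p (-0.32 ± 0.17, adjusted p = 0.656). B6-D2 congenic had the highest strain mean for 16 of the 25 genes, against 23.5% of all tested probe sets, and for 21 of the 35, against 23.1% of all probe sets. Median differences were -0.13 for B6-Lyst and -0.18 for B6-albino from B6-D2 congenic, and without B6-D2 congenic replicate 2 they were -0.01 and 0.00.

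The order of single arrays showed how much rested on a few of them. B6-D2 congenic replicate 2 held the highest level of 17 of the 25 tested genes, where it held that of 5.65% of all tested probe sets, and of 22 of the 35, against 5.99% of all probe sets. It is also the array with Krt12 at 13.81, and without it the median difference of B6-D2 congenic from C57BL/6J was 0.41 in place of 0.54. The 3 C57BL/6J arrays together held the lowest level of 21 of the 25 genes, replicate 1 of 10, replicate 2 of 2 and replicate 3 of 9, where they held that of 35.6% of all tested probe sets. Over the 35 genes they held the lowest level of 26, against 32.4% of all probe sets. C57BL/6J replicate 3 is the array with the widest actin gap. Without it the median differences from C57BL/6J were 0.34 for B6-Lyst, 0.28 for B6-albino and 0.43 for B6-D2 congenic, in place of 0.34, 0.39 and 0.54.

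Relative to each gene's own mean, the median over the 25 genes was -0.36, -0.24 and -0.37 on C57BL/6J replicates 1 to 3 and 0.24, -0.17 and 0.05 on those of B6-Lyst. It was 0.19, 0.21 and -0.21 on those of B6-albino and 0.02, 0.46 and 0.09 on those of B6-D2 congenic, while the same median over all tested probe sets stayed between -0.06 and 0.09. B6-Lyst replicate 2 and B6-albino replicate 3 thus stood nearest to C57BL/6J.

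**Figure D4:**
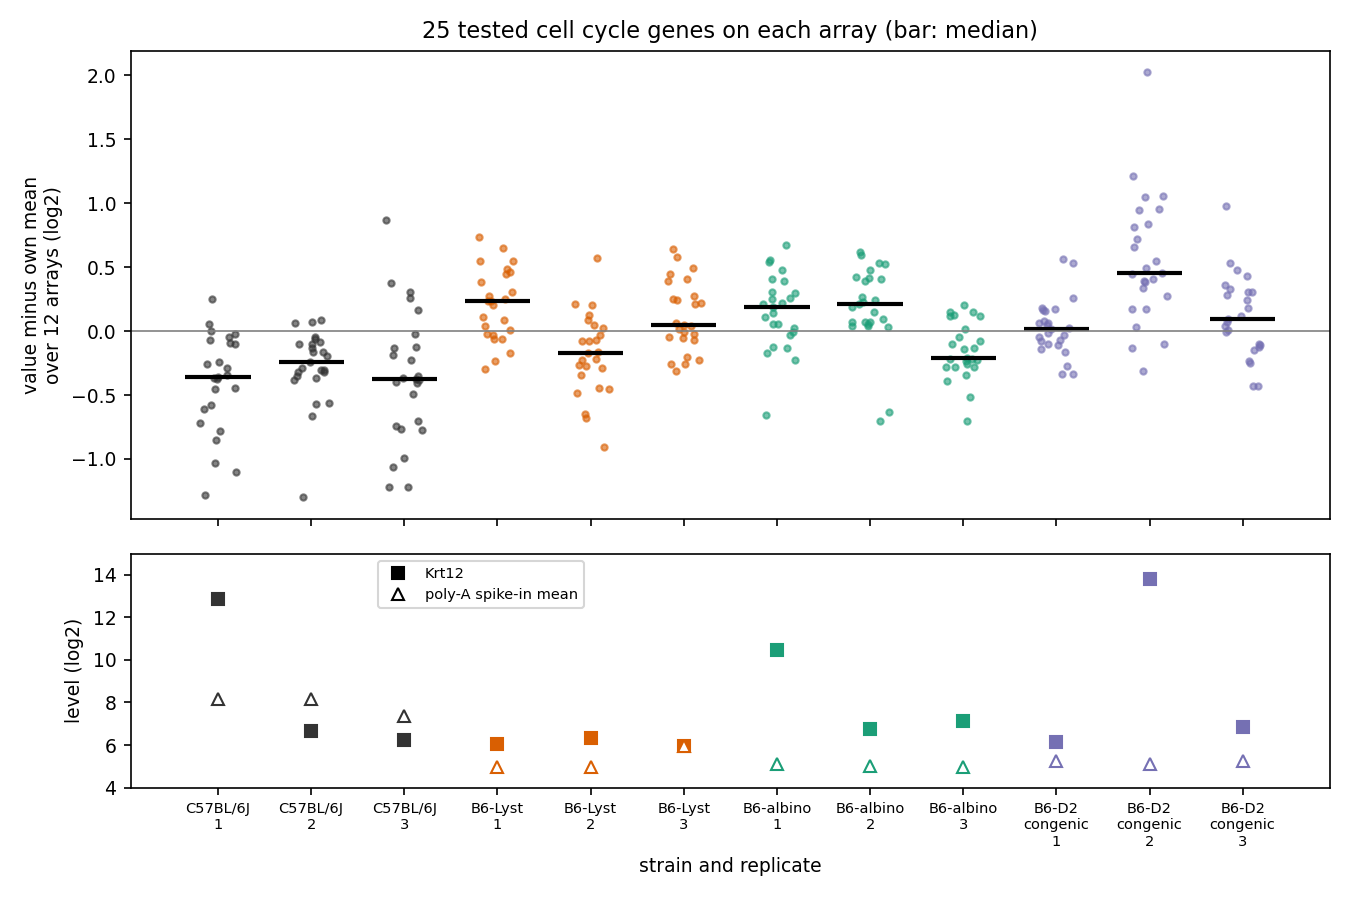
Upper panel, value of each of 25 tested cell cycle genes minus its own mean over 12 arrays (y axis, log2), 1 point per gene, with the median as a bar, for each array (x axis); lower panel, log2 level of Krt12 and mean of the poly-A spike-in controls on the same arrays. The medians are lowest on the 3 C57BL/6J arrays (-0.36, -0.24 and -0.37), which also carry the highest spike-in means, and highest on B6-D2 congenic replicate 2 (0.46), which carries the highest Krt12.

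Without the 3 arrays with Krt12 above 10, an alternative chosen after the data were seen, the medians over the 25 genes against C57BL/6J were 0.36 for B6-Lyst, 0.26 for B6-albino and 0.41 for B6-D2 congenic. Rrm2 then differed by 1.28 in B6-Lyst and by 1.48 in B6-D2 congenic, and Top2a by 1.14 in B6-Lyst and 1.10 in B6-albino.

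A separate list of other cell cycle genes was followed in the same fit, 105 with a probe set and 73 of them tested. In B6-Lyst against C57BL/6J 2 of the 73 were called higher and 1 lower by limma, where 1.25% and 1.28% of all tested probe sets were. In B6-albino 1 was called higher and 0 lower (0.163% and 0.185% of all), and in B6-D2 congenic 0 either way (0.0074% and 0.0333%). The median differences of the 73 from C57BL/6J were 0.08, 0.06 and 0.09, nearer to those of all probe sets than the medians of the 25 genes above. Over all 105, with the low genes included, the medians were 0.14, 0.11 and 0.15. Of the 105, 74, 65 and 78 were above 0, where 48%, 47.4% and 49.2% of all probe sets were. By class the medians ran from 0.00 (21 other G1 and S regulators) to 0.24 (9 other inhibitors and p53 targets) in B6-Lyst, with 20 other replication genes at 0.17 and 23 other mitotic genes at 0.08. With low genes included, the 44 other mitotic genes had medians of 0.16, 0.16 and 0.25 in B6-Lyst, B6-albino and B6-D2 congenic. The 25 other G1 and S regulators then had 0.03, 0.02 and 0.08.

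Cdkn1c, which encodes p57, a kinase inhibitor of the same family as p21, rose in B6-Lyst. It was at 9.45, 9.46 and 8.88 in C57BL/6J, 10.81, 10.89 and 11.13 in B6-Lyst, 9.74, 9.74 and 10.18 in B6-albino and 9.08, 9.74 and 9.51 in B6-D2 congenic. All B6-Lyst arrays lay above all others, as the macrophage gene mean did. The B6-Lyst differences were 1.68 ± 0.21 from C57BL/6J (3.20-fold, adjusted p = 0.00104 in limma), 1.06 ± 0.21 from B6-albino (0.0284) and 1.50 ± 0.21 from B6-D2 congenic (0.00285). The first and last of these calls held in 12 of 12 fits that left out 1 array, with adjusted p up to 0.00782 and 0.0194. The call against B6-albino held in 7 of 12, and was lost without any 1 of the B6-Lyst arrays or without B6-albino replicate 1 or 2 (0.96 to 1.12, adjusted p = 0.0836 to 0.122). It was also lost without the 3 arrays with high Krt12 (0.98, adjusted p = 0.117) and with the replicate number as a block (0.0513).

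Cdk2, the kinase of the G1 to S step, fell in B6-Lyst by 0.81 ± 0.18 (adjusted p = 0.0416 in limma). It was at 8.997, 8.49 and 9.05 in C57BL/6J, 8.29, 7.93 and 7.90 in B6-Lyst, 7.85, 8.34 and 8.01 in B6-albino and 8.07, 8.16 and 7.98 in B6-D2 congenic. All mutant arrays lay below C57BL/6J, and the uncalled differences of B6-albino and B6-D2 congenic were -0.78 (adjusted p = 0.0796) and -0.78 (0.119). Ncaph, a condensin subunit, was at 6.14, 6.28 and 6.34 in C57BL/6J, 6.78, 6.58 and 6.84 in B6-Lyst, 6.74, 6.65 and 6.69 in B6-albino and 6.95, 7.05 and 6.83 in B6-D2 congenic. It rose in B6-Lyst by 0.48 ± 0.11 (adjusted p = 0.0473), and all mutant arrays lay above C57BL/6J. The probe set used for Ncaph ends in x_at, so it may also match other transcripts. The other probe set of Ncaph was low, at 5.22, and was not tested. It differed from C57BL/6J by only -0.002 to 0.13 over the mutant strains. Both calls lay close to the threshold: with 1 array left out, that of Cdk2 held in 2 of 12 fits (without C57BL/6J replicate 2 or B6-albino replicate 2, adjusted p up to 0.14 over the 12) and that of Ncaph in 1 of 12 (without B6-D2 congenic replicate 3, up to 0.198). Neither was called without the filter on signal (0.0513 and 0.0539).

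Brca1, which acts in the repair of broken DNA at the fork, rose in B6-albino. It was at 9.56, 8.82 and 9.07 in C57BL/6J, 9.44, 9.47 and 9.30 in B6-Lyst, 10.40, 10.61 and 10.23 in B6-albino and 9.07, 8.65 and 9.24 in B6-D2 congenic. All B6-albino arrays lay above all others. The B6-albino differences were 1.26 ± 0.20 from C57BL/6J (adjusted p = 0.0365 in limma) and 1.43 ± 0.20 from B6-D2 congenic (0.0182), and B6-Lyst was below it by 1.01 ± 0.20 (B6-Lyst minus B6-albino -1.01, 0.0268). Its second tested probe set, at 5.81, gave 0.62 (adjusted p = 0.179), 1.01 (0.276) and -0.55 (0.228) in the same order. Its low probe sets, which were not tested, disagreed. One, at 4.64, gave 0.44, 1.00 and -0.66, and the other, at 5.57, gave -0.04, -0.004 and 0.08. With 1 array left out, the call of Brca1 held in 5 of 12 fits against C57BL/6J and in 7 of 12 in each of the other pairs, with adjusted p up to 0.151, 0.126 and 0.102. It was lost without B6-albino replicate 1 or 2 in all 3 pairs, and with tissue marker levels in the model it was lost in all 3 as well (0.386, 0.0594 and 0.0564). Differences over these fits stayed at 1.10 to 1.59, 1.26 to 1.55 and -1.21 to -0.83.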

How the data were processed

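Irides of 4 strains were measured on 12 one-colour Affymetrix arrays. Each array has a deposited log2 value for each probe set, a scale read from the values, which ran from 2.98 to 14.29 with column medians of 6.05 to 6.14. How the authors corrected, normalized and summarised the log2 values is not given in the sources used here, and no further scaling was applied. Precision is limited by the small number of arrays.

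Names came from the platform annotation, with symbols updated through RefSeq GRCm38.p6: of 45037 other than 64 controls, 34945 had 1 symbol (34741 matched to RefSeq), 932 several and 9160 none, and the last 2 kinds were left unnamed. Probe sets with a mean at or above the 40th percentile (5.653) were tested, 27022 in all. All 12 arrays entered one linear model of strain means in limma 3.58.1 under R 4.3.3 (intensity trend, prior degrees of freedom 3.57), with two-sided moderated tests, Benjamini-Hochberg adjustment over 27022 probe sets in each pair, and calls at an adjusted p under 0.05.

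Tested on simulated data for B6-Lyst against C57BL/6J, the fit recovered 70% of changes of 1 log2 unit and 94% of changes of 2 log2 units among 27022 probe sets, with 15 false calls. The changed probe sets were picked at random, the noise was independent between probe sets, and no change was simulated in another pair. These shares therefore do not give the power for the cell cycle genes. Rrm2, 2.09 higher in B6-D2 congenic than in C57BL/6J, was not called (adjusted p = 0.119 in limma). The cell cycle genes and all lists were chosen with earlier results of these data known. Values on every array are given for genes called, for the 5 of smallest p in B6-Lyst against C57BL/6J and the 3 of smallest p in each other pair, and for the highest gene of each role, and of the other cell cycle genes up to 4 called genes in each direction of a pair are named. Mki67, Birc5 and Ccnb2 values beyond that rule, and genes named by range, were chosen after their values were seen. The alternatives were other filters (none, 60th percentile), scaling to the 75th percentile, quantile normalization, no trend, the 6 arrays of a pair, the replicate number as a block, actin and tissue marker covariates, any tested probe set of a gene, and leaving out each array or the 3 with Krt12 above 10.

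Replicate numbers did not pair the samples: over 18 pairs of arrays with the same number, deviations from the strain means correlated from -0.434 to 0.389, and 6 were over 0.1. Promoter letters were counted in RefSeq promoters (250 bases before and 50 after the start, 32851 entries), without a test.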

Additional observations from a re-analysis of the deposited data

Results flagged for a closer look

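In 3 genes the effect of 1 mutant strain differed from that of another in a test of the difference itself. No test for a single outlying array was run, as groups of 3 are too small for it. Cdkn1a was 1.21 higher in B6-Lyst than in B6-albino (adjusted p = 0.0243 in limma), with its B6-Lyst arrays above and its B6-albino arrays below those of C57BL/6J. Cdkn1c was 1.06 higher in B6-Lyst than in B6-albino (adjusted p = 0.0284) and 1.50 higher than in B6-D2 congenic (adjusted p = 0.00285). Brca1 was lower in B6-Lyst than in B6-albino, with a difference of -1.01 (adjusted p = 0.0268), and 1.43 higher in B6-albino than in B6-D2 congenic (adjusted p = 0.0182). The poly-A spike-in means of these 3 strains lay between 4.94 and 5.95. Those of the hybridization spike-in were 9.67 to 9.76 in B6-Lyst, 9.99 to 10.17 in B6-albino and 10.07 to 10.16 in B6-D2 congenic, and their part was not tested. Tissue markers differed between the strains, and the part of the corneal, lens and retina means was tested only through the model with tissue marker levels. The macrophage gene mean was not in that model, and its part was not tested.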

How the results depend on the processing

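The counts of called cell cycle genes changed in 3 of the 6 pairs. In B6-Lyst against C57BL/6J 0 became 1 in the fit of the 6 arrays and without the 3 arrays with Krt12 above 10, and ranged from 0 to 1 when single arrays were left out. In B6-D2 congenic against C57BL/6J the range with single arrays left out was 0 to 1. In B6-Lyst against B6-albino 1 became 0 with tissue marker covariates, and the range was 0 to 1. No difference of a named gene changed sign, and over the named cell cycle genes and alternatives 418 values kept their side of the threshold, 5 came under it and 7 no longer passed it. Only 1 of these differences was a call, Cdkn1a in B6-Lyst against B6-albino, and it was kept in 15 of 22 alternatives. The rest of the 418 were uncalled differences that stayed uncalled. On the other list, where every named difference was a call, 110 values kept the call and 66 lost it. With the replicate block the number of called cell cycle genes was the same in all 6 pairs. On the other list the block ended the calls of Cdk2 (adjusted p = 0.0758), Ncaph (0.0826), Brca1 in B6-albino against C57BL/6J (0.0662), Cdkn1c in B6-Lyst against B6-albino (0.0513) and Brca1 in B6-albino against B6-D2 congenic (0.0551), and 2 of 12 arrays correlated best with arrays of their own number.

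Calls over all probe sets moved more. B6-Lyst against C57BL/6J gave 684, with 252 to 902 when 1 array was left out and 280 to 895 under other settings. The same counts were 94, 0 to 200 and 0 to 215 for B6-albino, and 11, 4 to 44 and 3 to 39 for B6-D2 congenic. For B6-Lyst against B6-albino they were 498, 232 to 665 and 230 to 1184, against B6-D2 congenic 252, 181 to 262 and 137 to 358, and for B6-albino against B6-D2 congenic 23, 10 to 25 and 6 to 35. Scaling moved the share of calls that were higher in the first strain, from 46.8% to 31.1% (75th percentile) and 30.2% (quantile) for B6-albino against C57BL/6J, from 18.2% to 28.2% and 38.9% for B6-D2 congenic, from 68.9% to 79.2% and 84.5% for B6-Lyst against B6-albino, and from 87% to 74.1% for B6-albino against B6-D2 congenic under the first. The causes of these changes were not tested. With 3 arrays a strain and a fold compressed near the floor of the scale, differences of low genes such as Bub1 and Kif20a are not resolved.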
